A study of Drosophila melanogaster with 24 samples.

Results

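The response of adult male *Drosophila melanogaster* kept at a constant 15 °C to a slow heat ramp was described from 6 of the 24 arrays of a study of temperature regimes. The ramped flies (15 °C constant, 35 °C, 3 arrays) were heated from 20 °C to 35 °C at 0.1 °C per minute, a ramp of 150 minutes, and then frozen. The flies they were set against (15 °C constant, 20 °C, 3 arrays) stayed at 20 °C and were frozen at the same time. All were males of 1 field-collected laboratory stock that lived at 15 °C from the egg to 6 days of age and were moved to 20 °C before the assay. Each array measured whole flies of a vial of 20, and all vials of a regime shared a cabinet, so the spread between arrays is that between pools of 1 cabinet. The same ramp was measured in flies kept at a constant 25 °C (6 arrays) and in flies of the 15 °C fluctuating regime (5 arrays used), which served for comparison. The 6 arrays were chosen by their labels and not by any measured value, while the sixth array of the fluctuating regime was left out for its low correlation with all others.

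When proteins unfold in the heat, heat shock factor binds its targets and the genes of the heat shock proteins are transcribed within minutes, while much other transcription is lowered. HSP70 and its J-domain partners bind unfolded chains, small heat shock proteins hold aggregating proteins, HSP90 with its cochaperones matures signalling proteins, and the CCT ring folds actin and tubulin. In *Drosophila* the inducible Hsp70 genes are nearly silent in unstressed flies and stand in several near-identical copies.

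The ramp changed 2720 of 18769 probe sets at an adjusted p under 0.05 (limma, Benjamini-Hochberg), which is 14.5% of those tested. Of these, 1164 (6.2%) were up-regulated and 1556 (8.29%) were down-regulated in ramped flies. The values are GC-RMA expression levels on the log2 scale, and a change of 1 is a doubling or a halving. Large rises outnumbered large falls. A change of over 1 was found for 144 up-regulated and 115 down-regulated probe sets, and a change of over 2 for 34 and 8. A rise of over 3 was found for 14 probe sets, and no fall passed 3. With each array centred on its own median, the split was 1752 up-regulated and 1131 down-regulated. The mean of the array medians was 6.54 at 35 °C and 6.61 at 20 °C. The median change over all probe sets was 0.02. In whole flies, fewer cells of a type and less RNA per cell cannot be told apart.

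One of the 20 °C arrays stood apart. Replicate 1 correlated at 0.990 with both other 20 °C arrays, which correlated with each other at 0.998, and 208 of its probe sets were more than 1 above both of them. It carried egg shell and yolk transcripts, which adult males do not normally make. Of 24 genes of egg shell, yolk and egg patterning, 19 were over 1 higher on this array than the mean of replicates 2 and 3, and 14 were over 4 higher. Their median level was 4.15, 4.00 and 4.04 on the ramped arrays, against 8.64, 4.10 and 4.09 on the 20 °C arrays. The yolk protein gene *Yp1* read 4.15, 3.70 and 3.74 on the ramped arrays and 12.89, 3.58 and 4.14 on the 20 °C arrays. *Yp1*, *Yp2* and *Yp3* changed by -3.01, -3.03 and -2.39, none of which passed, and by -0.00, -0.02 and -0.02 without this array. All counts were also computed on 22 arrays, without it: 990 probe sets (5.27%) were then higher and 1208 (6.44%) lower. Of the probe sets called with it, 881 of the 1164 and 1131 of the 1556 were called again with the same sign, and 0 changed sign. Unless stated otherwise, a gene named below passed the test with and without this array.

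**Figure D1:**
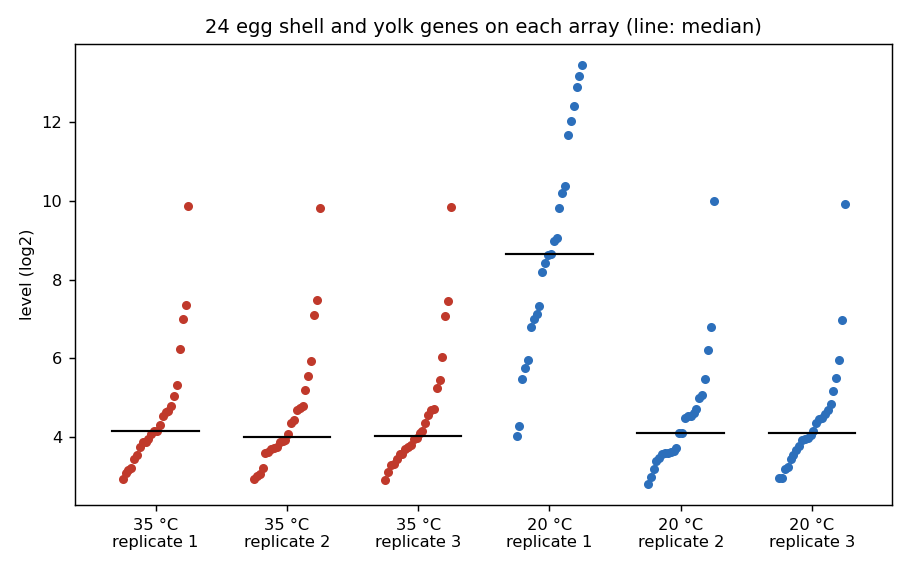
Level (log2) of 24 egg shell, yolk and egg patterning genes on the 3 ramped arrays (red) and the 3 arrays held at 20 °C (blue), with points sorted by level and the median as a line. Only 20 °C replicate 1 has a median of 8.64; the other arrays lie between 4.00 and 4.15.

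The largest rises belonged to the heat-inducible Hsp70 genes. No probe set was assigned to a single copy of these genes, but 4 probe sets carry only Hsp70 copies in their annotation. A probe set shared by 2 Hsp70B copies read 13.52, 13.54 and 13.58 in ramped flies, against 5.68, 5.15 and 5.34 at 20 °C, a change of 8.16 ± 0.11 (SE). The set shared by both Hsp70A copies read 14.04, 13.97 and 13.96 in ramped flies and 6.81, 6.48 and 6.15 at 20 °C. A set that 4 Hsp70B copies share changed by 7.47 ± 0.10, and the fourth, which stayed between 3.60 and 4.67 after the ramp, changed by 1.27. The arrays of the groups did not overlap in any of them, as was so for 31.1% of all probe sets. The gene with 1 symbol that rose most was *lncRNA:alphagamma-element:CR32865*, a noncoding RNA whose gene lies between Hsp70B copies in the RefSeq annotation (Release 6). It read 13.04, 13.03 and 12.99 in ramped flies and 6.43, 5.81 and 5.71 in flies held at 20 °C, a 131-fold rise (change 7.03 ± 0.13 SE, adjusted p = 6.2e-20, limma).

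Of 7 other HSP70 family genes measured, 5 rose and 0 fell; over all 11982 genes, each represented by 1 probe set, 7.38% rose and 11.1% fell (6.57% and 8.63% on 22 arrays). *Hsp68*, a heat-inducible member, read 13.97, 13.99 and 13.95 in ramped flies and 8.55, 8.78 and 8.80 at 20 °C. It rose 38.3-fold (5.26 ± 0.07, adjusted p = 3.8e-22). The constitutive members moved far less: *Hsp110*, a nucleotide exchange factor of the family, rose by 1.59, the endoplasmic reticulum member *Hsc70-3* by 0.87, the abundant cytosolic *Hsc70-4* by 0.81 and the mitochondrial *Hsc70-5* by 0.73. *Hsc70-1* and *Hsc70-2* changed by 0.05 and -0.01 and did not pass. The median change of the list was 0.81, against -0.003 over all genes.

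The 6 small heat shock proteins measured split into members that rose strongly and members that did not pass. A further 5 on the list, among them *Hsp22* and *Hsp23*, had no probe set assigned to them alone. *Hsp26* read 14.39, 14.45 and 14.37 after the ramp, against 11.18, 10.49 and 10.63 at 20 °C, a 12.4-fold rise. *Hsp27* read 13.54, 13.49 and 13.55 after the ramp, against 10.99, 10.65 and 10.77. Both were already well expressed at 20 °C, and the 20 °C array with egg transcripts was the highest of its group for each. Without it their changes were 3.84 and 2.81, against 3.64 and 2.72 with it. *l(2)efl*, a crystallin-type protein of muscle, rose by 0.86. The other 3 measured, *CG4461*, *CG7409* and *CG13133*, changed by between -0.29 and 0.03 and did not pass.

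Most of the measured cochaperones of HSP70 and HSP90 rose. Of 11 genes on the list, 8 rose and 0 fell. The list also holds the HSP90 relatives *Gp93*, which rose, and *Trap1*, which did not pass. The HSP90 gene *Hsp83* had no probe set assigned to it alone. *stv*, the BAG-domain cochaperone starvin, read 12.74, 12.83 and 12.80 in ramped flies and 9.27, 9.37 and 9.31 at 20 °C, an 11.1-fold rise with an SD of 0.05 in each group. *CG1416*, of the Aha1 type that speeds the HSP90 ATPase, rose by 2.00 ± 0.07 and *unc-45*, a myosin chaperone, by 1.86 ± 0.09. *Sgt1* rose by 1.32 and the kinase-loading *Cdc37* by 1.01. *p23* and *STUB1* changed by -0.00 and 0.08 and did not pass. *Stip1*, which bridges HSP70 and HSP90 and was picked after its values were seen, rose 4.24-fold. Of 18 J-domain proteins, 4 rose, 0 fell and 14 did not pass. *CG7130* read 9.98, 10.02 and 9.99 in ramped flies and 6.68, 6.94 and 6.96 at 20 °C (8.77-fold), and *DnaJ-1*, the main cytosolic partner of Hsp70, rose 4.35-fold. *CG7133*, the neighbour of *CG7130* in the annotation, rose by 0.74 and *Droj2* by 0.69.

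All 8 genes of the CCT ring rose, by between 0.83 and 1.35, whereas 0 of 6 prefoldin subunits, which deliver actin and tubulin to it, passed the test. *CCT5* read 11.16, 11.21 and 10.92 in ramped flies, against 10.31, 9.45 and 9.47 at 20 °C. Each CCT gene described here was highest at 20 °C on the array with egg transcripts, and without that array *CCT5* rose by 1.64 and *CCT3* by 1.59. The prefoldin genes lay between -0.21 and 0.10. In mitochondria 3 of 11 folding genes rose, namely the HSP60 ring gene *Hsp60A* (0.74), its HSP10 lid *CG11267* (0.87) and *Hsc70-5*, which the HSP70 list holds too. The other 8, among them the proteases *Lon* and *ClpP*, did not pass. In the endoplasmic reticulum 5 of 22 genes rose and 3 fell (6 and 1 without the array with egg transcripts). *Hsc70-3* (0.87), the stress kinase gene *PEK* (0.60) and the HSP90 relative *Gp93* (0.55) rose, while the oxidase *Ero1L*, which drives disulfide bonding, changed by -0.06 and did not pass.

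**Figure D2:**
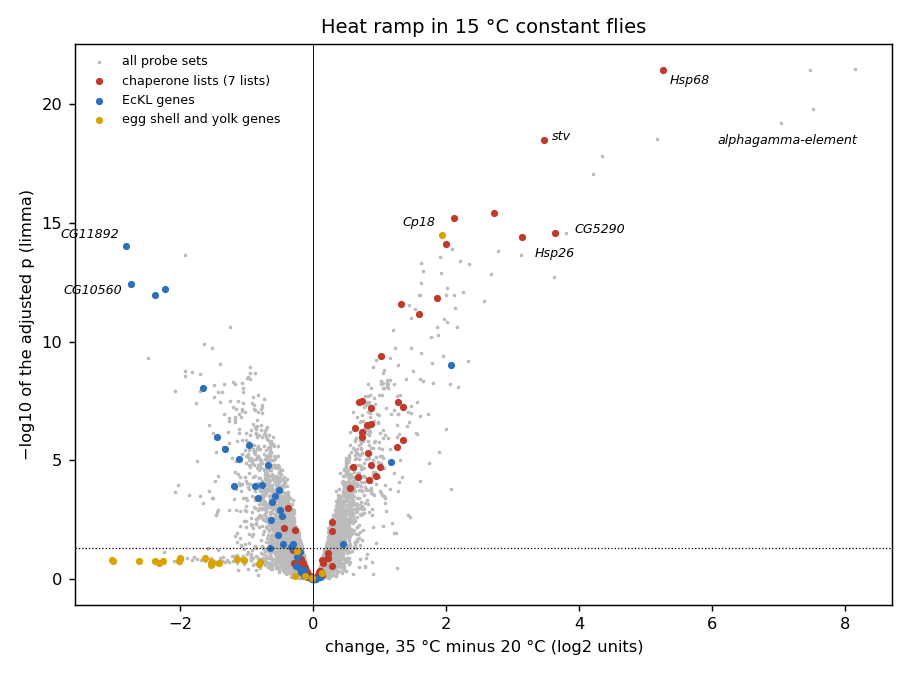
Change after the ramp (35 °C minus 20 °C, log2) against −log10 of the adjusted p for all 18769 probe sets; members of 7 chaperone lists, the EcKL genes and the egg shell and yolk genes are coloured and the dotted line marks 0.05. Many chaperone genes lie to the upper right, while others did not pass and lie below the line. The probe sets shared by Hsp70 copies are not coloured. The EcKL genes *CG11892* and *CG10560* lie furthest to the upper left, and egg shell genes with large negative changes lie below the line.

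Among the 14 genes that rose most by the rule used here, 6 were chaperones, cochaperones or the RNA between the Hsp70B copies. The rule took only genes with a probe set of 1 symbol. The other 8 stood on none of the chaperone lists. *CG5290* read 10.62, 10.62 and 10.50 in ramped flies, against 6.94, 6.57 and 6.81 at 20 °C, a rise of 3.81 ± 0.12. *CG15043* read 11.70, 11.60 and 11.54, against 7.90, 7.93 and 8.13, a 12.4-fold rise. *Pa1*, a subunit of a histone methyltransferase complex, rose 8.75-fold and *Taf7*, a subunit of the general transcription factor TFIID, 6.89-fold. *Taf7* read 8.43, 8.49 and 8.30 in ramped flies and 5.64, 5.69 and 5.54 at 20 °C, so that the groups lay far apart. *CG12643* (2.67), *CG13321* (2.57), *CG13748* (2.33) and *Plzf*, a zinc finger gene (2.26), completed the group. Some genes were singled out after their values were seen. *tra*, the splicing regulator of female sex determination, rose 4.61-fold, with a mean of 9.98 ± 0.02 in ramped flies and 7.78 ± 0.02 at 20 °C (SD, n = 3 each). *Pdk*, the kinase that inhibits pyruvate dehydrogenase, rose by 1.62, and *Gart* and *Pfas*, of purine synthesis, rose by 1.61 and 1.27. The chorion gene *Cp18* was the only member of the egg shell list that rose on 23 arrays (with *Fcp3C* on 22): it read 7.35, 7.48 and 7.45 in ramped flies and 5.47, 5.48 and 5.50 at 20 °C. The array with egg transcripts did not stand out for *Cp18*, and its change was 1.94 both with and without that array.

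Genes that signal or relieve stress changed in part. *Hsf*, the heat shock factor gene itself, read 9.61, 9.56 and 9.63 in ramped flies and 9.61, 9.55 and 9.55 at 20 °C and did not pass. Of 9 genes of heat shock transcription, 1 rose and 2 fell (1 and 1 without the array with egg transcripts). Over all genes 7.38% rose and 11.1% fell, so a list of this size holds about as many by the shares alone. In the integrated stress response 4 of 12 rose and 1 fell: the pseudokinase gene *trbl* rose by 1.47, the serine synthesis gene *aay* by 0.91 and *PEK* by 0.60, while the mitochondrial folate gene *Nmdmc* fell by 1.02. The transcription factor of this response, *crc* (ATF4), changed by 0.01 and did not pass. In antioxidant defence 4 of 17 rose and 2 fell (3 and 2 without the array with egg transcripts). *Gclm* (0.83), a subunit of the enzyme that begins glutathione synthesis, *maf-S* (0.82), the partner of the fly Nrf2, and *Trxr1* (0.66), thioredoxin reductase, rose. *Cat* (catalase) and *Sod2* changed by 0.04 and -0.03 and did not pass. Among 14 genes of autophagy and aggregate removal, *ref(2)P*, the fly p62, rose by 0.89, *Atg1* by 0.64 and the polyubiquitin gene *Ubi-p5E* by 0.56, while *Atg13* fell by 0.72 and *Atg5* by 0.42. Of the 5 Turandot genes, humoral stress markers, 0 passed, and *TotC* had the widest change (-0.99).

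The detoxification families changed in both directions. Of 83 genes on the cytochrome P450 list, 15 rose and 20 fell (12 and 19 without the array with egg transcripts). The list was picked by symbol and also holds the cyclophilin genes *Cyp1* and *Cyp40*. *Cyp12d1-d*, a mitochondrial P450 known from insecticide induction, read 12.51, 12.39 and 12.55 in ramped flies and 10.55, 10.51 and 10.80 at 20 °C, a 3.64-fold rise. *Cyp6t3* rose by 1.65 and *Cyp309a1* by 1.29. *Cyp6a8* fell to 8.12, 8.13 and 7.62 in ramped flies, against 9.26, 9.74 and 9.96 at 20 °C. *Cyp4d21* fell by 1.51 and *Cyp4ac2* by 1.02. Of 34 glutathione S-transferases, 9 rose, led by *GstE1* (1.47), and 7 fell (9 and 6 without the array with egg transcripts). All 4 of the Theta class fell (between -0.37 and -0.31, of which *GstT4* lost its call without 20 °C replicate 3). Of 35 UDP-glycosyltransferases, 4 rose (11.4%) and 6 fell (17.1%), with *Ugt37B1* at 1.74 and *Ugt37A2* at -1.47. Without the array with egg transcripts 3 rose and 6 fell. The shares over all genes, 7.38% risen and 11.1% fallen, are not far from those of this family. Of 24 prolyl 4-hydroxylase alpha genes, which modify collagen, 7 rose and 0 fell (6 and 0 without the array with egg transcripts). Those that rose most were *PH4alphaEFB* (1.12), *PH4alphaSG1* (1.06) and *CG9698* (0.99).

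The 2 genes that fell most were EcKL genes, of a family of ecdysteroid kinase-like proteins, most of unknown substrate. Of 46 measured, 25 fell and 3 rose, and without the array with egg transcripts 26 fell and 2 rose; the list median was -0.39. *CG11892* read 8.27, 8.02 and 8.11 in ramped flies, against 10.96, 10.89 and 10.996 at 20 °C, and so was 7.05-fold lower after the ramp (-2.82 ± 0.10, adjusted p = 9.1e-15). *CG10560* read 8.45, 8.44 and 8.29 in ramped flies, against 10.89, 11.20 and 11.34. Its neighbour *CG10553* fell as well (-2.24), as did *CG10514* (-2.38), *CG31288* (-1.65) and *CG31104* (-1.44). Groups that do not overlap were a condition for naming *CG11892*, *CG10560*, *CG10553* and *CG10514*. Those of *CG31288* and *CG31104* did not overlap either, as was so for 35.5% of all genes. A few members went the other way: *CG16898* rose 4.22-fold, with 11.12, 11.11 and 10.93 in ramped flies and 8.73, 9.15 and 9.06 at 20 °C, and *CG11891*, 4 annotated genes away from *CG11892*, rose by 1.16.

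Outside this family, *CG13607* fell to 5.92, 5.71 and 5.59 in ramped flies, against 7.91, 8.49 and 8.30 at 20 °C. The phosphate transporter gene *NaPi-T* fell to 5.83, 5.79 and 5.79, against 7.68, 7.997 and 7.96. *CG15096* (-1.93), *CG10516* (-1.93) and *net*, a bHLH repressor known from wing veins (-1.82), fell as well. Groups that did not overlap were a condition for naming them. *CheA7a* and *CheA75a*, of a family of secreted proteins of chemosensory organs, and *CG13428* behaved otherwise. *CheA7a* read 7.78, 6.28 and 7.71 in ramped flies and 9.08, 9.47 and 9.34 at 20 °C; ramped replicate 2 was the lowest array. *CheA75a* (7.87, 6.45 and 7.80 in ramped flies) and *CG13428* (8.37, 6.85 and 8.24) had the same low array. Leaving out each array in turn, the change of *CheA7a* stayed between -2.30 and -1.55. *CheA87a* and *Obp19b*, picked after their values were seen, fell by 1.45 and 1.44 with the same array lowest. Of all probe sets, only 7 were more than 1 lower on ramped replicate 2 than on both other ramped arrays. On that array the median level of 15 photoreceptor genes was 8.65, against 9.31 and 9.29 on the other ramped arrays, and its part in these falls was not tested.

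**Figure D3:**
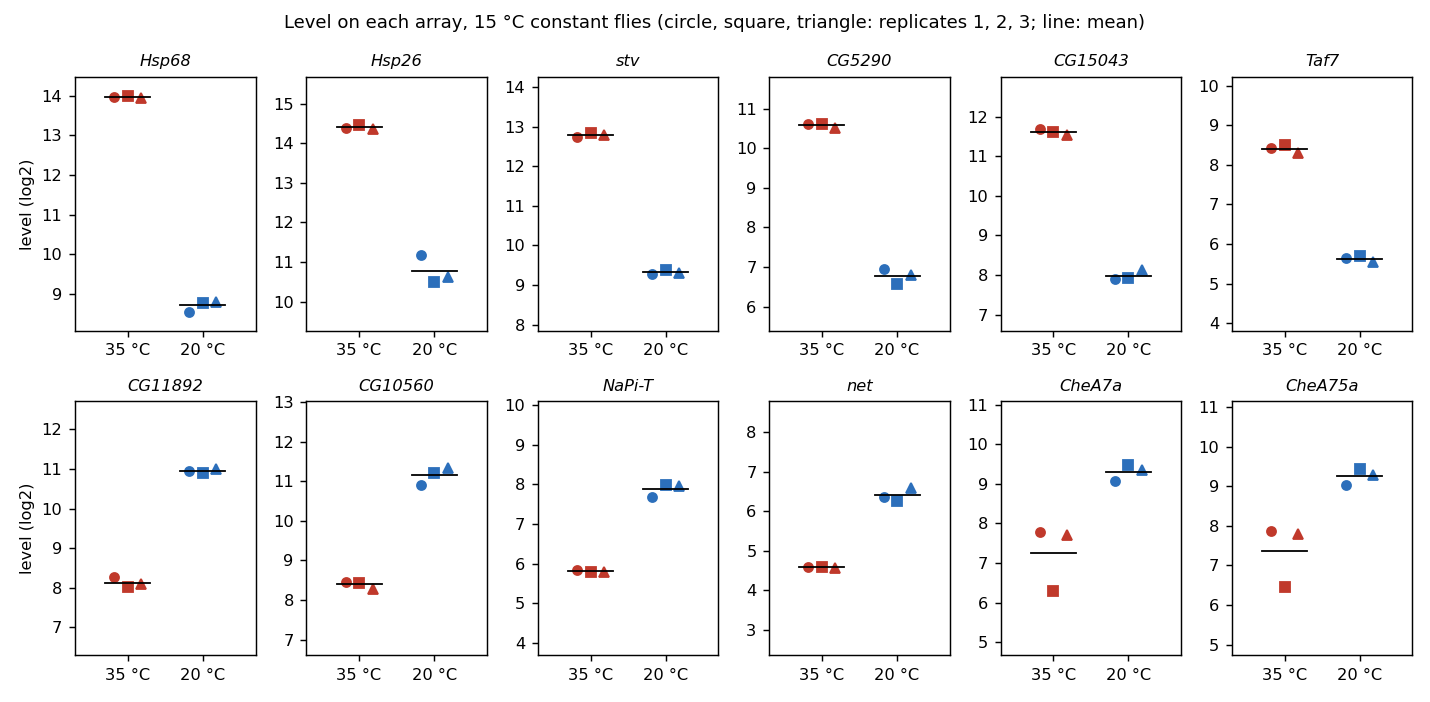
Level (log2) of 12 genes on each array of ramped flies (35 °C, red, left) and flies held at 20 °C (blue, right); symbols mark the replicate, the line is the mean, and each panel spans the same range of log2 units. The rule that chose these genes required groups that do not overlap, so the arrays lie apart in every panel. *CheA7a* and *CheA75a* have 1 low ramped array (6.28 and 6.45).

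Genes of lipid storage and use fell more often than they rose: 12 of 25 fell and 2 rose (10 and 2 without the array with egg transcripts). For comparison, 11.1% of all genes fell and 7.38% rose. The lipase gene *Lip4* read 7.28, 7.48 and 7.12 in ramped flies, against 8.75, 8.86 and 8.76 at 20 °C. *sug*, the sugar-sensing transcription factor sugarbabe, fell by 1.48. The fatty acid synthase genes *FASN3* (-0.93) and *FASN1* (-0.83) fell, as did *ACC* (-0.83), which makes their substrate. The lipase gene *CG5966* rose by 1.41. Of 14 genes of gluconeogenesis, glycogen and trehalose, 3 fell (21.4%) and 0 rose, led by the adipokinetic hormone receptor gene *AkhR* (-0.70) and *Pepck1* (-0.51). In glycolysis *Hex-C*, the fat body hexokinase, fell by 1.07 and *Pgi* rose by 0.33, and the other 9 measured did not pass. The insulin receptor gene *InR* rose by 0.47. Among fat body genes *fit*, a satiety signal, read 9.31, 8.40 and 9.14 in ramped flies, against 10.39, 10.64 and 10.39. The median level of the 10 fat body genes was 9.74, 9.35 and 9.45 in ramped flies and 10.41, 10.55 and 10.51 at 20 °C. The median of their changes was smaller, at -0.28 (-0.42 without the array with egg transcripts), and 4 of the 10 changes lay above 0. Past the threshold 4 of them fell (3 without the array with egg transcripts) and 0 rose. *FASN1* and *apolpp* are lipid genes too.

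Genes of the gut moved both ways. Of 25 digestive enzymes and related proteins, 7 fell and 4 rose (7 and 3 without the array with egg transcripts). For comparison, 11.1% of all genes fell and 7.38% rose. *Npc2d*, a sterol-binding protein, fell by 1.10 and the mannosidase gene *LManVI* by 1.09, whereas the neighbouring maltase genes *Mal-A7* and *Mal-A8* rose by 1.28 and 1.15. *Mal-A7* read 11.05, 10.77 and 10.84 in ramped flies and 9.05, 9.97 and 9.79 at 20 °C, with the array with egg transcripts the lowest. Of 13 Jonah proteases, 3 fell (23.1%) and 0 rose, led by *Jon44E* (-1.57). Of 45 ABC transporters, 15 fell (33.3%) and only *CG8908* rose (0.53). Without the array with egg transcripts 13 fell and 1 other member rose, while *CG8908* did not pass. *CG32091* fell by 1.13 and the multidrug transporter *Mdr49* by 0.47. Of 18 antimicrobial and recognition genes, 4 fell (22.2%) and 0 rose. *PGRP-LF*, a brake on immune signalling, fell by 1.07 and *BomS2* by 0.66, while the antifungal *Drs* changed by -0.12 and did not pass.

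Among 13 clock genes 3 rose and 3 fell (2 and 2 without the array with egg transcripts), and *tim* and *per*, which repress their own activators, were among the fallen. *tim* read 8.59, 8.29 and 8.29 in ramped flies, against 9.25, 9.24 and 9.13 at 20 °C, and *per* read 5.33, 5.26 and 5.35, against 6.07, 6.10 and 6.09. Both groups had been frozen at the same time. *cwo*, a repressor of the same loop, rose by 0.63 on its brighter probe set and changed by 0.00 on the other. *Clk* and *cyc*, the activators, changed by 0.09 and -0.10 and did not pass. Of 15 JNK and early response genes 2 rose and 3 fell (1 and 2 without the array with egg transcripts), where 7.38% of all genes rose and 11.1% fell. *Jra* (Jun) rose by 0.30 and *sr*, an early growth response factor, fell by 0.48. *puc*, the feedback phosphatase of JNK signalling, changed by 0.16 and did not pass. The metal-responsive factor gene *MTF-1* rose by 0.45, whereas 0 of 4 metallothioneins measured passed.

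For ribosome biogenesis and the proteasome the result depended on the 20 °C array with egg transcripts. Of 38 genes of ribosome biogenesis, 20 fell and 2 rose with it, and 11 fell and 3 rose without it, and the list median was -0.48 with it and -0.23 without. *Nop60B*, the pseudouridine synthase of the nucleolus, read 7.47, 7.58 and 7.50 in ramped flies, against 9.79, 7.83 and 7.85 at 20 °C. Its change was -0.97 with that array and -0.32 without it. *l(3)72Dn* (-1.10 with it and -0.69 without) and *Polr1B*, a subunit of RNA polymerase I (-0.89 with it and -0.54 without), fell in both fits. *Nop17l*, whose product works with HSP90 in assembling ribonucleoproteins, rose by 1.17. Of 40 proteasome genes, 6 fell with the array and 0 passed without it. The reductase gene *RnrL* and the early zygotic factor *zld* fell by 1.03 and 0.86 with it and did not pass without it, and were picked after their values were seen.

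Several large groups showed 0 members past the threshold with limma on 23 and on 22 arrays. These were the 32 genes of respiratory complex I (between -0.06 and 0.21), 30 testis genes (-0.28 to 0.16), 17 flight muscle genes (-0.18 to 0.45), 17 neuronal genes (-0.30 to 0.31) and 12 genes of the citric acid cycle (-0.07 to 0.25). Of 41 cytosolic ribosomal protein genes, 1 rose and 1 fell, with 0 and 1 without the array with egg transcripts, and their median change was -0.04. Of 56 odorant receptor genes, 1 rose. Testis genes had a median level of 11.09, 11.20 and 11.38 in ramped flies, against 11.16, 11.29 and 11.38 at 20 °C, and the median of 24 accessory gland genes lay between 11.90 and 12.16 on all 6 arrays. Of these 24, 2 fell and 0 rose in both fits. *Acp62F*, a seminal fluid protease inhibitor, read 12.52, 12.46 and 12.73 in ramped flies, against 13.24, 13.26 and 13.33 at 20 °C (-0.71), and *Dup99B* fell by 0.21.

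**Figure D4:**
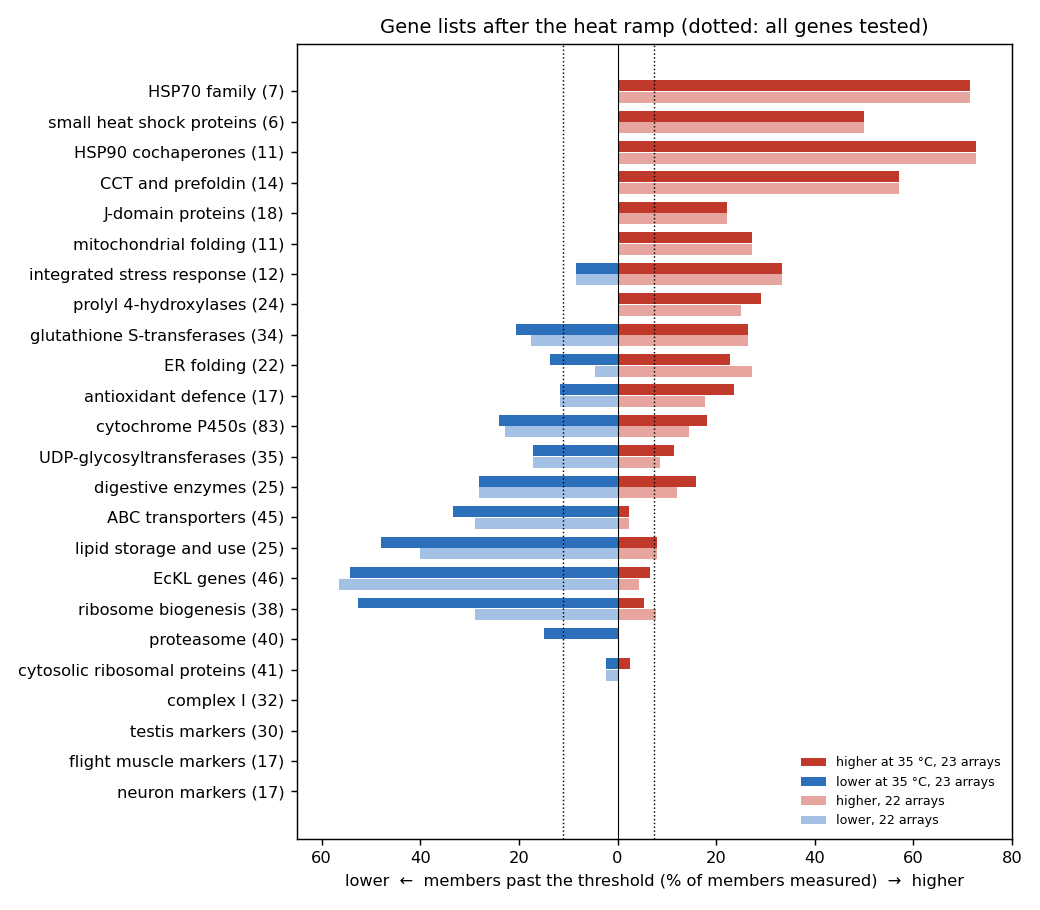
Share of each gene list (number of genes measured in brackets) that was higher (red) or lower (blue) after the ramp at an adjusted p under 0.05, with the array that carried egg transcripts (dark) and without it (pale). Dotted lines mark the shares over all genes tested, 7.38% higher and 11.1% lower. Chaperone lists extend to the right, EcKL and lipid genes to the left, and the proteasome bar vanishes without that array. The cytochrome P450 bar also counts the cyclophilin genes *Cyp1* and *Cyp40*. The HSP90 cochaperone bar also counts the HSP90 relatives *Gp93* and *Trap1*.

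Against 25 °C constant flies, the ramp response of 122 probe sets (0.65% of those tested) differed at an adjusted p under 0.05 for the difference. Of these, 35 (0.186%) lay above 0 and 87 (0.464%) below it, where the difference is the change in 15 °C flies minus that in 25 °C flies. Counted by genes, each represented by 1 probe set, 107 of 11982 differed (0.893%), with 27 above 0 (0.225%) and 80 below (0.668%). In 25 °C flies the ramp itself raised 8.4% and lowered 10.1% of probe sets. The commonest class, 61 genes, rose in both regimes but less in 15 °C flies: their median change was 0.83 in 15 °C flies and 1.61 in 25 °C flies. Of these 61, 60 had a lower mean level at 35 °C in 15 °C flies than in 25 °C flies, and 43 had a higher mean level at 20 °C. A smaller rise requires a lower level at 35 °C, a higher level at 20 °C, or both. These counts and medians therefore follow in part from how the class was picked. A further 14 rose in 25 °C flies and did not pass in 15 °C flies, and 9 rose in 15 °C flies and did not pass in 25 °C flies. Several chaperones stood among the smaller rises, but the probe sets of Hsp70 copies did not pass: the difference was -0.27 (adjusted p = 0.61) and -0.24 (adjusted p = 0.64) for the brighter Hsp70B sets, -1.10 (adjusted p = 0.14) for the dim one and 0.59 (adjusted p = 0.21) for the Hsp70A set. *Hsp68* rose by 5.26 in 15 °C flies and 5.94 in 25 °C flies, a difference of -0.68 ± 0.10 (SE, adjusted p = 0.00090). *Hsp27* rose by 2.72 in 15 °C flies and 3.70 in 25 °C flies (difference -0.98), and *Hsp26* by 3.64 in 15 °C flies and 4.48 in 25 °C flies (difference -0.85). The *Hsp26* arrays read 14.37 to 14.45 after the ramp in 15 °C flies and 14.44 to 14.51 in 25 °C flies. At 20 °C they read 10.49 to 11.18 in 15 °C flies, above the 9.87 to 10.07 in 25 °C flies. *CCT3*, *CCT7*, *CCT8*, *Cdc37*, *Sgt1*, *nudC*, *DnaJ-1* and *CG7130* also differed, all with the smaller rise at 15 °C, as did *tra* (2.21 in 15 °C flies and 3.11 in 25 °C flies). *stv* rose by 3.47 in 15 °C flies and 3.37 in 25 °C flies, and its difference of 0.10 did not pass (adjusted p = 0.75).

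The largest differences lay outside the chaperones. *TpnC4*, a troponin C of flight muscle, read 12.21, 12.28 and 12.23 in ramped 15 °C flies and 11.98, 12.08 and 11.87 at 20 °C. In 25 °C flies it read 9.75, 8.71 and 10.25 after the ramp, against 7.49, 7.59 and 7.33 at 20 °C (difference -1.84). *AsnS*, asparagine synthetase, changed by -0.42 in 15 °C flies, which did not pass, and rose by 1.25 in 25 °C flies. *CG12795* rose by 1.62 in 15 °C flies and 3.05 in 25 °C flies, *CG6511*, a close neighbour of *Cp18*, by 0.87 in 15 °C flies and 2.28 in 25 °C flies, and *CG18213* by 0.62 in 15 °C flies and 1.90 in 25 °C flies. On the other side, *Cubn2*, a relative of the endocytic receptor gene *Cubn*, rose by 1.61 in 15 °C flies and changed by -0.38 in 25 °C flies (difference 1.99 ± 0.35). A second, dimmer probe set of *Cubn2* changed by 0.10 in 15 °C flies and did not pass (adjusted p = 0.68). *Amnionless*, the membrane anchor of cubilin, rose by 1.99 in 15 °C flies and changed by 0.37 in 25 °C flies. *Amnionless* read 5.96, 6.42 and 5.99 after the ramp and 4.66, 3.56 and 4.19 at 20 °C in 15 °C flies, and in 25 °C flies 4.60, 4.64 and 4.50 after the ramp, against 4.64, 3.95 and 4.05 at 20 °C. *Cubn*, picked after its values were seen, rose by 0.73 in 15 °C flies and fell by 0.69 in 25 °C flies. *lectin-33A* rose by 1.33 in 15 °C flies and changed by -0.14 in 25 °C flies. *CG13325* rose by 1.42 (0.92 without the array with egg transcripts, which was its lowest at 20 °C), and its value in 25 °C flies was -0.72. *CG14219* changed by -0.22 in 15 °C flies and fell by 1.82 in 25 °C flies, and its difference (1.60) did not pass without the array with egg transcripts (1.47, adjusted p = 0.083). *CG15043* and *Cyp12d1-d* rose more in 15 °C flies: *CG15043* by 3.63, against 2.25 in 25 °C flies, and *Cyp12d1-d* by 1.86, against 0.87 in 25 °C flies. *per* fell by 0.77 in 15 °C flies and by 1.49 in 25 °C flies.

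**Figure D5:**
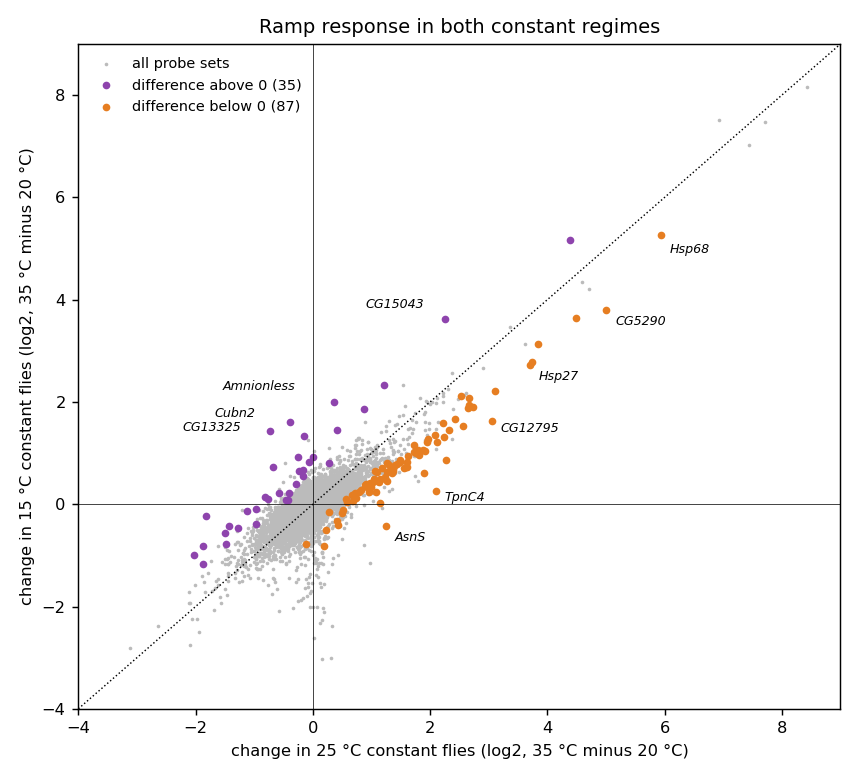
Change after the ramp in 15 °C constant flies (vertical) against that in 25 °C constant flies (horizontal), in log2 units, for all probe sets; the 122 whose responses differed are coloured by the sign of the difference and the dotted line marks equal change. Of the genes with a negative difference, 61 rose in both regimes and lie to the right of 0 and below the line.

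Against flies of the 15 °C fluctuating regime, 0 probe sets differed in their ramp response by limma (0% of those tested). At an unadjusted p under 0.05 there were 1174, and the fits with a variance trend and with array weights gave 0 as well. The fluctuating regime had 2 ramped arrays in this comparison, and its own ramp raised 7.79% and lowered 5.67% of probe sets. *Hsp68* rose by 5.26 in the constant and 5.49 in the fluctuating regime, *stv* by 3.47 in the constant and 3.61 in the fluctuating regime, and *CG15043* by 3.63 in the constant and 3.81 in the fluctuating regime. *CheA7a* fell by 2.04 in 15 °C constant flies and changed by -0.43 in 15 °C fluctuating and -0.34 in 25 °C constant flies, and neither difference passed (-1.70 from 25 °C flies, adjusted p = 0.13).

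Some risen genes lay next to each other. Of 880 risen genes placed in the annotation, 210 (23.9%) had a risen gene as their nearest measured neighbour on either side, against 14.1% of all 11899 genes placed. Among the 111 that rose by over 1, 45 (40.5%) did. The pairs named here were picked after their values were seen. *Glyat*, a glycine acyltransferase gene, and *CG12560* are direct neighbours and rose 4.33-fold and 4.01-fold. *CG13321* and *CG44251*, with no other measured gene between them, rose by 2.57 and 1.96, and *stv* lies beside *Abp1* (0.75). For fallen genes the share was 29.4%, against 20.6% of all genes. Genes that rose by over 1 made up 1.54% of the measured genes on 3L and 0.48% on X. Of 273 further probe sets of the called genes, 162 had the same sign as the one used, 49 of them past the threshold, while 10 passed with the opposite sign.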

How the data were processed

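RNA of whole male flies was measured on Affymetrix Drosophila Genome 2.0 arrays. The values are log2 expression levels as deposited: the authors background-corrected, normalized and summarised each probe set with GCRMA in R. All 24 columns belong to labelled samples, and no scanner file was used. The 183 control probe sets were left out, leaving 18769, of which 13647 carry 1 gene symbol, 402 several and 4720 none; the probe set with the highest mean stands for a gene (11982 genes). Names come from the platform annotation matched to RefSeq (Release 6).

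The means of 8 groups were estimated on 23 arrays by limma (3.58.1, under R 4.3.3) with no covariate, and p was adjusted by Benjamini-Hochberg over all probe sets, with 0.05 as the threshold. The array 15 °C fluctuating, 35 °C, replicate 3 was left out (r = 0.208 to 0.216 with the others, which correlate at 0.969 or more). A fit on 22 arrays also lacks 15 °C constant, 20 °C, replicate 1. Differences between regimes are interaction contrasts. The fit was tested on simulated data. Arrays have no depth; their number limits the precision.

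Among genes past the threshold on 23 and 22 arrays without group overlap, the 14 that rose and 12 that fell most were named. Groups do not overlap for 35.5% of all genes. Also named were up to 3 genes on each side of each of 45 hand-written lists, with examples that did not pass. The 5 largest on each side of a difference were named too. The members and lists were chosen with earlier results of these data known. Python 3.11.15, pandas 2.3.3 and matplotlib 3.10.9 served for tables and figures.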

Additional observations from a re-analysis of the deposited data

Results flagged for a closer look

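The rise or fall after the ramp differed between 15 °C and 25 °C constant flies for 25 of the genes that the naming rule chose, by limma's test of the difference itself. Other list members and genes picked after their values were seen passed it too, among them *CCT7*, *Cdc37*, *Sgt1*, *nudC*, *tra*, *Stip1* and *Cubn*. Each value is the change in 15 °C flies minus that in 25 °C flies, in log2 units. Chaperones and cochaperones were below 0: *Hsp27* (-0.98), *Hsp26* (-0.85), *CCT3* (-0.74), *CG7130* (-0.71), *CCT8* (-0.70), *Hsp68* (-0.68) and *DnaJ-1* (-0.41). *TpnC4* (-1.84), *AsnS* (-1.67), *CG12795* (-1.43), *CG6511* (-1.41), *CG18213* (-1.29), *CG5290* (-1.20), *Taf7* (-0.96), *Cp18* (-0.72), *maf-S* (-0.46) and *Trxr1* (-0.40) lay below 0 as well. Above 0 were *CG13325* (2.15), *Cubn2* (1.99), *Amnionless* (1.62), *CG14219* (1.60), *lectin-33A* (1.48), *CG15043* (1.38), *Cyp12d1-d* (0.99) and *per* (0.72). A difference above 0 means a larger rise in 15 °C flies, or, for *per* and *CG14219*, a smaller fall or none. Without the 15 °C constant array with egg transcripts, *CG14219* had a difference of 1.47 (adjusted p = 0.083, limma) and the other 24 kept their call. *CG13325* lost its call without 15 °C constant, 35 °C, replicate 3 (2.01, adjusted p = 0.061) and without 25 °C constant, 20 °C, replicate 2 (2.03, adjusted p = 0.054). *Amnionless*, *CG13325*, *TpnC4* and *lectin-33A* lost theirs when only the arrays compared were fitted (adjusted p = 0.076, 0.074, 0.073 and 0.069).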

How the results depend on the processing

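The number of probe sets higher after the heat ramp (1164) became 106 with all 24 arrays, 1752 with each array centred on its median and 1815 with array weights, and leaving out 1 array of those compared gave 895 to 1041. The number of probe sets lower after the heat ramp (1556) became 139 with all 24 arrays, and 1170 to 1546 on leaving out 1 array. The array added to reach 24 correlates at 0.208 to 0.216 with the rest. The number of probe sets whose ramp response differs from 25C constant flies (122) became 0 with all 24 arrays, 71 with only the arrays compared and 433 with array weights, and 85 to 108 on leaving out 1 array. The number of probe sets whose ramp response differs from 15C fluctuating flies (0) became 1 with the replicate block. It became 235 without 15 °C fluctuating, 35 °C, replicate 1, which leaves that group 1 array, assumed to vary like the others, and stayed 0 on leaving out any other array. For these changes the cause was not tested. Deviations from the group mean correlated at 0.039, -0.067 and -0.003 for replicates 1, 2 and 3. Unmatched replicate numbers gave between -0.059 and 0.099. With 3 arrays per group, these values cannot settle whether the replicate number pairs the arrays. With the number as a block, 1103 probe sets were higher and 1481 lower. On the 5 arrays left of those compared without the one with egg transcripts, an alternative chosen after seeing the data, 1096 were higher and 1294 lower. Of 177 values for single genes, 43 kept direction and call under every alternative run and 0 reversed. Calls were lost by 132 with all 24 arrays, 24 with only the arrays compared, 23 without the array with egg transcripts and 14 to 21 without another array of 15 °C constant flies. Averaging all probe sets of a gene moved 7 of 9 values.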
